A study of Homo sapiens with 6 samples.

Results

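The amino acid transporter genes of MCF-12A cells were followed here through exposure to a fatty acid. Members were taken by symbol alone, as every listed gene of the SLC1A, SLC3A, SLC6A, SLC7A, SLC36A, SLC38A and SLC43A families, and 32 of the 14803 genes in the count table belonged to them. MCF-12A is a non-tumorigenic human breast epithelial cell line that lacks the estrogen receptor, and it was grown in mammary epithelial growth medium. Cells received octanoic acid (OA, a saturated fatty acid of medium chain length, as its sodium salt) or the vehicle, phosphate-buffered saline (PBS), for 24 h, and 3 libraries of each group were sequenced. The labels do not say whether these libraries are separate cultures, and the p-values then cover the spread among the libraries alone, which may be technical.

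Amino acids do not cross membranes freely, and carriers in the plasma membrane and the lysosome membrane set which of them enter, leave or are swapped. Some carriers use the sodium gradient to bring in small amino acids such as glutamine and alanine. Others, the heteromeric exchangers, pair a light chain that moves the substrate with a heavy chain that brings it to the cell surface, and they trade an internal amino acid for an external one such as leucine or cystine. The leucine exchanger SLC7A5 is known for high levels in dividing cells, and SLC7A11 brings in the cystine from which glutathione is made.

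The 6 libraries held 43049972 to 59935521 counts, which gave a median standard error of 0.0529 for a log2 fold change. Markers of mammary epithelium were abundant, with a summed level of 6021 to 6220 CPM (counts scaled to a common library total after TMM, the trimmed mean of M-values) in vehicle and 3668 to 3799 CPM in OA, while 3 of the 6 markers were called higher and 3 lower. KRT5, a basal keratin gene, went from 3863 to 3963 CPM down to 1015 to 1122 CPM, and the other 5 markers summed to 2158 to 2266 CPM with vehicle and 2653 to 2715 CPM with OA. Of those 5, KRT14 and TP63 fell as well (log2 -2.22 and -1.46), and CDH1, EPCAM and KRT17 rose (log2 0.76, 0.92 and 0.60). KRT17 was the most abundant of them, with means of 1500 CPM in vehicle and 2271 CPM in OA. ESR1, the 1 steroid receptor gene in the table, had 59 to 87 counts with vehicle and 22 to 48 with OA and was called lower. Of 23 hepatocyte markers 16 were in the table, and they summed to 6.72 to 11.4 CPM with vehicle, against 13.4 CPM in OA replicate 1, 32.0 CPM in replicate 2 and 94.5 CPM in replicate 3. These markers did not vary alike among the OA libraries. ALB had 32, 578 and 2427 counts in OA replicates 1, 2 and 3, and SERPINA1 had 580, 599 and 660. All 7 neuron markers were in the table, and their summed level was 69.2 to 72.2 CPM with vehicle and 145 to 147 CPM with OA. The immune (2 of 10 in the table) and fibroblast (4 of 7) markers summed higher in OA, at 5.66 to 6.39 against 16.8 to 18.5 CPM and at 61.4 to 76.5 against 105 to 108 CPM, and the endothelial markers (3 of 5) summed lower, at 6.00 to 7.09 against 4.63 to 5.34 CPM. In RNA from whole cultures, fewer cells of a type and less RNA per cell cannot be told apart.

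With TMM, transporter genes changed in both directions in OA, and most families described below held genes of both. Of the 32 genes, 17 were higher (53.1%) and 12 were lower (37.5%) in the quasi-likelihood test of edgeR with 3 libraries per group, at a threshold of 0.01 on the adjusted p, against 43.3% of all genes tested called higher and 41.1% called lower. Together 90.6% of the transporter genes were called, and 84.5% of all genes tested were, so a call by itself set these genes little apart. More than 2-fold changes were called in 9 genes higher (28.1%, with 22.3% among all genes) and 3 lower (9.38%, with 12.3% among all genes). Both the 17 and the 9 include 3 genes (SLC38A3, SLC38A5 and SLC7A10) that met the filter on low counts only through OA. A higher level in OA was built into the entry of these genes. The libraries of the groups did not overlap for 30 of the 32 genes, as for 88.8% of all genes, and the exceptions were SLC38A9 and SLC6A6.

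Scaling between libraries moved this split. With library totals only, 20 transporter genes were higher and 7 lower, and with upper quartile scaling 20 were higher and 9 lower. All genes moved likewise, to 55.6% higher and 29.4% lower with library totals only and 53.1% and 31.7% with upper quartile scaling. The cationic branch of SLC7A, the SLC1 glutamate carriers and the SLC36 family had no gene called lower with library totals only. The median log2 fold change of the transporter genes was 0.25 with TMM, beside 0.03 for all genes tested. That 0.25 includes the 3 genes that met the filter only through OA, so part of it was built in. A filter of at least 1 CPM in 3 libraries left out SLC38A5 and SLC7A10. The median was then 0.11, beside 0.02 for all genes. Library totals alone shifted the median of all genes to 0.32. Changes are therefore given relative to the TMM scale, and each gene that lost its call or turned its sign under another scaling is named as such.

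**Figure D1:**
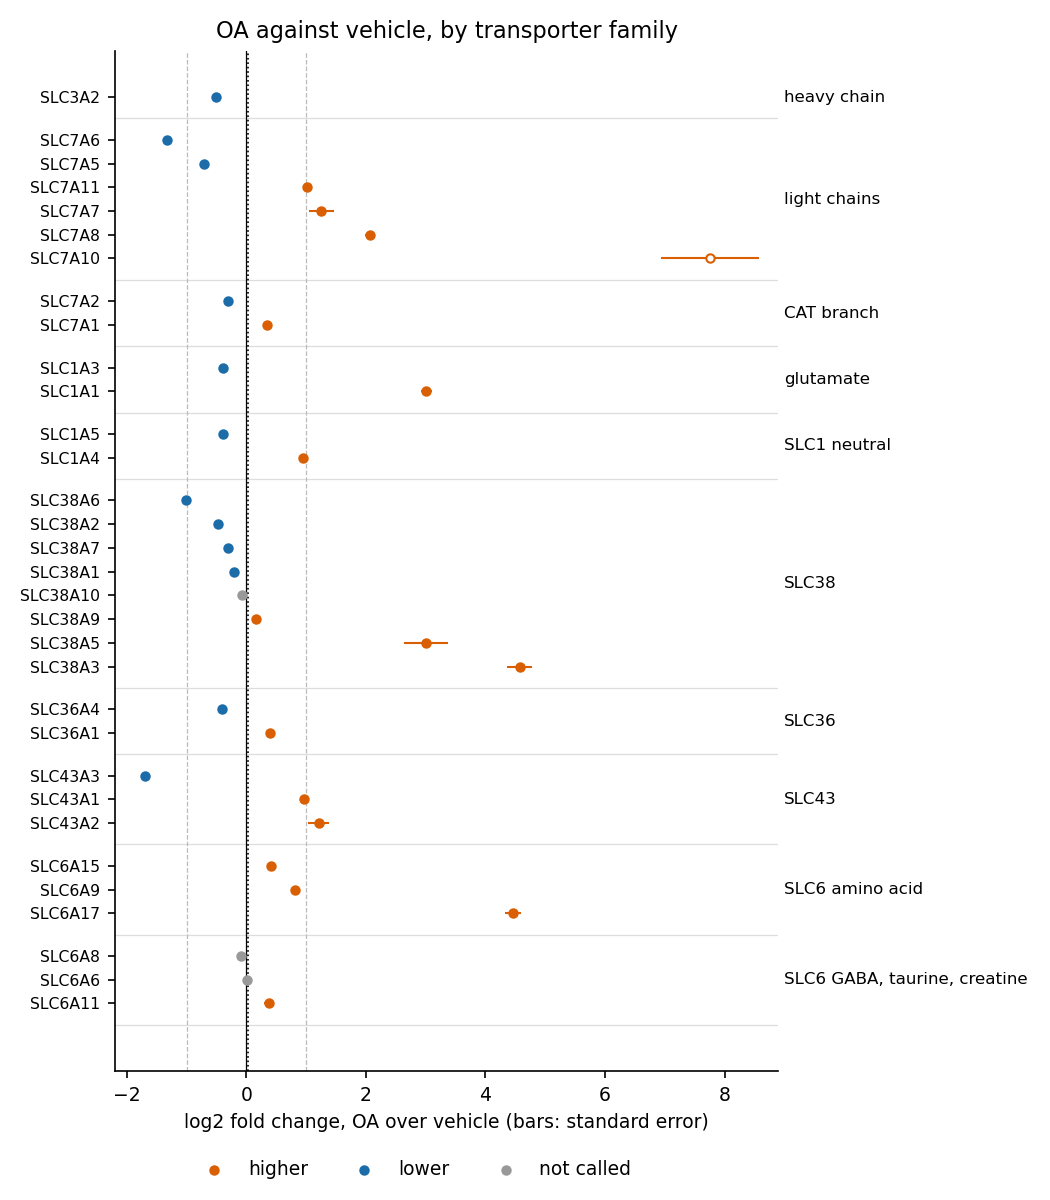
Log2 fold change of each transporter gene (x axis, OA over vehicle, bars are standard errors) grouped by family, with dashed lines at a 2-fold change and a dotted line at 0.03, the median of all genes tested. Orange marks genes called higher, blue lower and grey not called, and the open circle for SLC7A10, which had no vehicle count, is a fitted value that depends on the prior count. With TMM, most families hold genes on both sides of 0, and SLC43A3 lies farthest to the left at -1.70.

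The heavy chain gene SLC3A2 and its main light chain gene SLC7A5 fell together. SLC3A2 encodes the CD98 heavy chain, the shared partner of the light chains described next (chromosome 11, 62856012 to 62888883, hg38). It had 593, 588 and 580 CPM in the vehicle libraries and 403, 412 and 423 CPM in the OA libraries. The groups did not overlap, and the log2 fold change was -0.51 (SE 0.027, adjusted p = 5.83e-13). The other heavy chain gene of the family, SLC3A1, was not analysed here.

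SLC7A5 encodes LAT1, which brings in leucine and other large neutral amino acids in exchange for glutamine (chromosome 16, 87830016 to 87869499). Its level was 2604, 2632 and 2460 CPM with vehicle and 1509, 1621 and 1563 CPM with OA. Every OA library lay below every vehicle library, and SLC7A5 fell by 0.71 on the log2 scale (SE 0.031, adjusted p = 1.75e-14). The log2 change was -0.43 with library totals only, where SLC7A5 was called lower too. Parts of SLC7A5 are near-identical to its pseudogenes SLC7A5P1 (96.7% over 538 bases) and SLC7A5P2 (96.3% over 536 bases), so some of its reads may have been lost or shared. SLC7A5P2, the copy with a row in the table, had 83 to 104 counts with vehicle and 134 to 135 with OA and was not called.

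SLC7A11, which encodes xCT, the light chain that takes up cystine and releases glutamate (chromosome 4, 138164094 to 138242349), went the other way. It had 107, 116 and 118 CPM with vehicle and 229, 235 and 222 CPM with OA. Its OA libraries were all well above the vehicle libraries, and the gene was 2.02-fold higher (log2 1.01, SE 0.036, adjusted p = 6.66e-16). Without 1 library at a time the log2 change stayed between 0.97 and 1.04, so with TMM the gene lies at the 2-fold line. The log2 change was 1.24 with upper quartile scaling and 1.30 with library totals only.

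SLC7A6, the y+L exchanger gene whose product trades cationic for neutral amino acids, had the steepest fall of the light chains. Its level was 131, 124 and 129 CPM with vehicle and 49.7, 51.2 and 52.3 CPM with OA. All vehicle values were above all OA values, with a log2 fold change of -1.33 (SE 0.034, adjusted p = 3.51e-18). In the study's own gene models 12.4% of the exon bases of SLC7A6, and 53.1% in the GENCODE annotation, also lie in SLC7A6OS on the opposite strand, which fell by 0.38 on the log2 scale (641, 600 and 514 counts in vehicle, 561, 541 and 475 in OA). The sources used here do not give whether counting took strand into account, and without it reads of such pairs cannot be told apart. The same limit holds for SLC1A5, SLC7A11, SLC38A10 and SLC6A17, of whose exon bases 24.0%, 8.97%, 8.14% and 7.64% lie opposite a long noncoding RNA gene in GENCODE.

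The remaining light chains were low in vehicle and rose. SLC7A8 encodes LAT2, a light chain of broader neutral substrate range than LAT1, and had 3.50, 3.68 and 4.16 CPM with vehicle and 15.0, 16.1 and 16.2 CPM with OA. The groups were far apart, and SLC7A8 was 4.21-fold higher (log2 2.07, SE 0.081, adjusted p = 2.71e-15). SLC7A7, the y+L light chain gene mutated in lysinuric protein intolerance, had 0.815, 0.925 and 0.842 CPM with vehicle and 2.63, 1.92 and 1.61 CPM with OA. Its OA libraries differed among themselves more than its vehicle libraries did and stayed above them (log2 1.26, SE 0.20, adjusted p = 8.45e-06).

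SLC7A10, the gene of the small neutral amino acid and D-serine exchanger Asc-1, had 0 counts in all 3 vehicle libraries and 26, 29 and 32 counts in OA. Against a floor of 3 counts over the vehicle group, its level was at least 24.9-fold higher. In the study's gene models 10.5% of the exon bases of SLC7A10 lie in LRP3 on the opposite strand, and LRP3 had 1177 to 1766 counts with vehicle and 608 to 689 with OA. Light chain genes SLC7A9 and SLC7A13 were not analysed here.

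**Figure D2:**
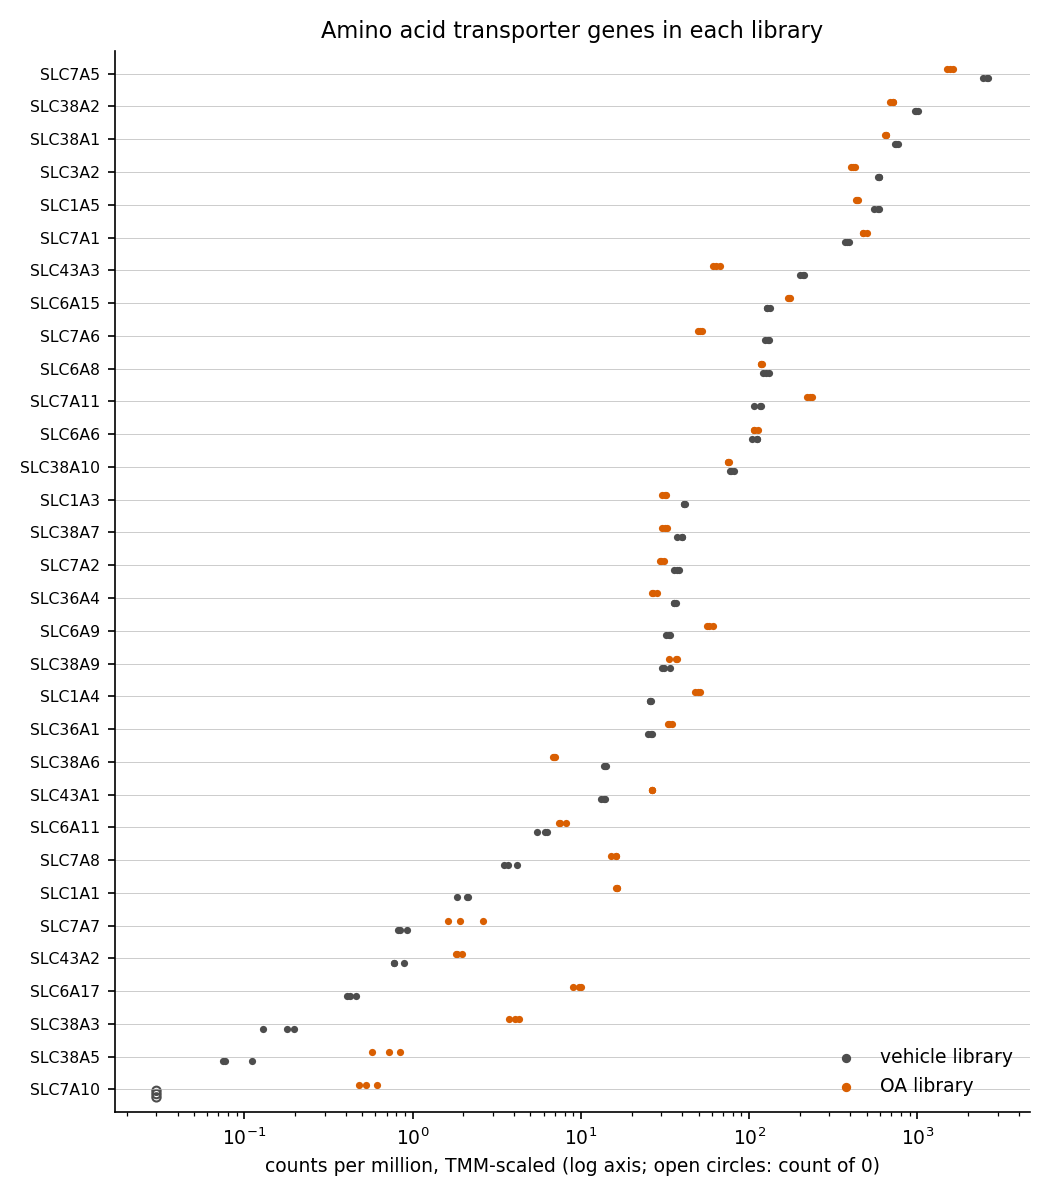
TMM-scaled CPM of each transporter gene in each library (x axis, log scale), ordered by the vehicle mean, with grey points for the 3 vehicle libraries and orange points for the 3 OA libraries. SLC7A5 leads in both groups, the libraries of a group lie close together in most genes, and the widest gaps between groups are at the low end, where SLC7A10 had a count of 0 in vehicle.

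Proportions between genes within a library do not depend on the scaling between libraries, and levels were divided by gene length for them (counts per kilobase). SLC3A2 over the sum of its 6 light chain partners was 0.338, 0.332 and 0.348 in vehicle and 0.378, 0.362 and 0.385 in OA. The OA mean was 1.10 times the vehicle mean, without overlap (exact permutation test, two-sided p = 0.1, the smallest that 3 against 3 allows). Among the light chains SLC7A5 made up 94.5% ± 0.28 of the summed level in vehicle and 90.5% ± 0.24 in OA (SD, n = 3). SLC7A11 went from 1.97% ± 0.15 to 6.24% ± 0.21, SLC7A8 from 0.130% ± 0.016 to 0.852% ± 0.022, and SLC7A6 from 3.38% ± 0.17 to 2.12% ± 0.063. These shares did not overlap between groups, and the exact permutation p was 0.1 for each.

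SLC7A11 over SLC7A5, the cystine light chain against the leucine light chain, was 0.0193, 0.0208 and 0.0226 in vehicle and 0.0717, 0.0684 and 0.0669 in OA. This 3.30-fold higher ratio (exact permutation p = 0.1) was 3.18 to 3.44 when any 1 library was left out. SLC7A8 over SLC7A5 went from 0.00138 to 0.00941 by the same measure, and the groups were again apart (exact permutation p = 0.1). SLC7A5 remained the leading light chain in every library.

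**Figure D3:**
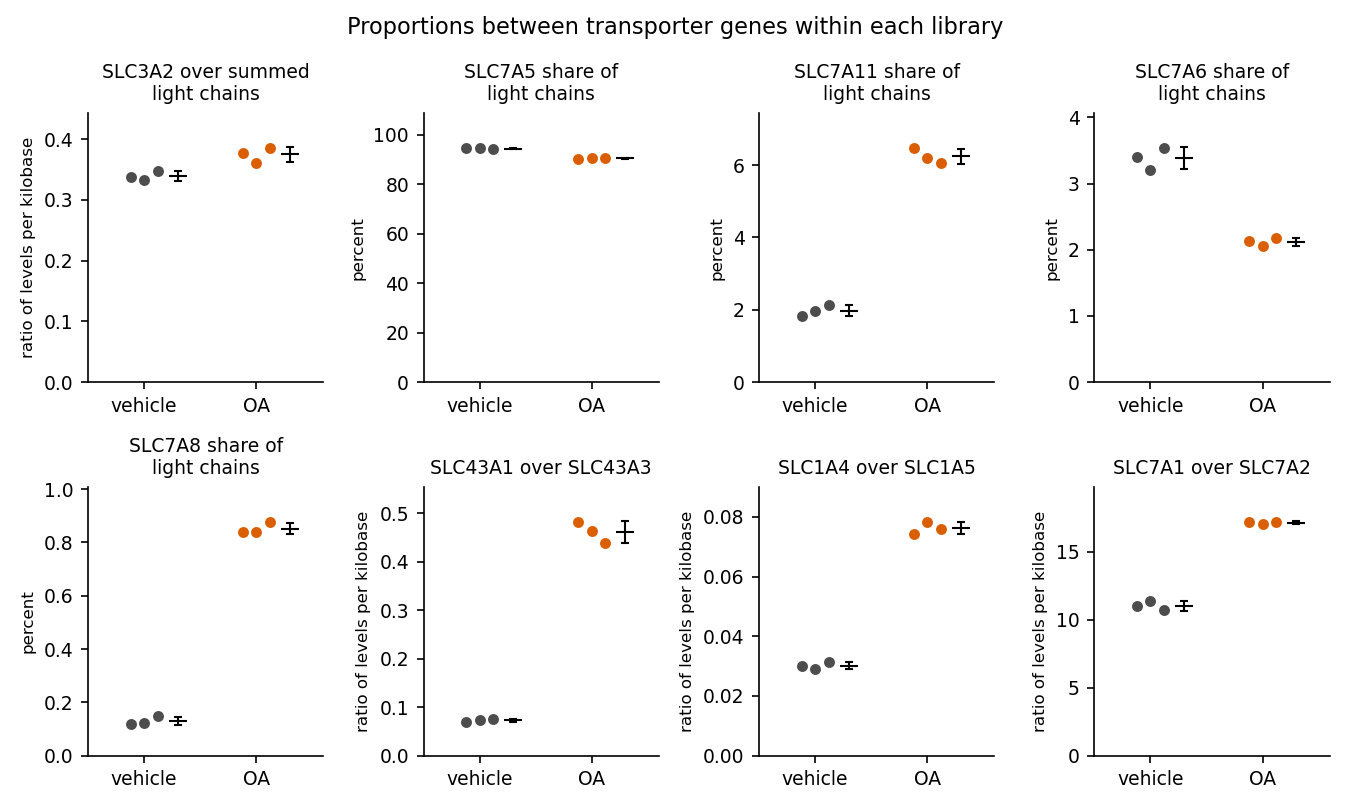
Ratios and shares of levels per kilobase within each library (y axes from 0, as ratios or percent) for vehicle (grey) and OA (orange), with the mean and SD in black beside the 3 points of each group. SLC3A2 over its light chains moved little (0.340 to 0.375), while the SLC7A11 share went from 1.97% to 6.24% and SLC43A1 over SLC43A3 from 0.0731 to 0.461.

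Short stretches of promoter show where searched motifs lay in SLC3A2, SLC7A5 and other transporter genes. In the 250 bases before the RefSeq start site (GRCh38.p14), 26 of the 32 genes had a sequence. SLC7A11, SLC7A2, SLC38A3, SLC43A3, SLC6A6 and SLC6A15 had none and were not searched. The first-listed start of each gene was used, and it is not always where the counted gene begins. For SLC3A2, SLC7A8, SLC43A2 and SLC38A1 the 250 bases lie inside the counted gene. For SLC1A3 they end at 36596587, ahead of the counted start at 36606355. The search covered both strands for 3 motifs. They were TGATGNAA, the amino acid response type of element bound by ATF4, TGACNNNGC, the core of the antioxidant response element bound by NRF2, and the E-box CACGTG bound by MYC and TFE3. Capitals below mark the motif, and for SLC7A6, which held TGACNNNGC 197 and 29 bases before its start, the nearer copy is given.
SLC3A2: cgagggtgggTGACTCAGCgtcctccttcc
SLC7A1: tgcccggcggTGACGCGGCcgagcgggccg
SLC7A6: cggcggcgggTGACGTGGCggggcggggcc
SLC7A7: cctctgggtcTGACCAGGCagtcccagctc
SLC7A5: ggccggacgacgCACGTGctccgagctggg
SLC43A1: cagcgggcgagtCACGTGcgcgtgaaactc
SLC38A5: tcctgtagcggaCACGTGgcttgcctggga
The first 4 windows lie on chromosome 11 (62881652 to 62881681, plus strand), chromosome 13 (29595754 to 29595783, minus strand), chromosome 16 (68264487 to 68264516, plus strand) and chromosome 14 (22819860 to 22819889, minus strand). The E-box windows lie on the minus strand of chromosome 16 (87869620 to 87869649), chromosome 11 (57515797 to 57515826) and chromosome X (48470449 to 48470478).

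TGACNNNGC was in 4 of the 26 promoters, those of SLC3A2, SLC7A1, SLC7A6 and SLC7A7, and in 12.1% of 11046 promoters of genes tested, a like share. SLC3A2 and SLC7A6 were lower in OA and SLC7A1 and SLC7A7 higher, so the genes with these letters did not share a direction. The copy in SLC3A2, 37 bases before the start, also spells TGACTCA, the AP-1 element. CACGTG was in 3 of the 26, with SLC7A5 lower and SLC43A1 and SLC38A5 higher, and in 8.73% of the tested genes' promoters. TGATGNAA was in 1 of the 26, that of SLC1A3, and in 1.48% of the tested genes' promoters. The median GC content of the 26 promoters was 65.8%, beside 64.8% for tested genes. A match describes these letters in this window and not a bound site.

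In the cationic branch of SLC7A, whose members carry arginine, lysine and ornithine without a heavy chain, the abundant gene rose and the less abundant gene fell. SLC7A1 encodes CAT-1, the general arginine carrier, and had 392, 382 and 370 CPM with vehicle and 472, 476 and 500 CPM with OA. The groups did not overlap (log2 0.34, SE 0.030, adjusted p = 1.99e-09). SLC7A2, a second arginine carrier gene of this branch, had 38.2, 35.9 and 37.1 CPM with vehicle and 29.3, 29.9 and 31.1 CPM with OA. It was called lower (log2 -0.30, SE 0.043, adjusted p = 1.92e-06), and this call did not hold with upper quartile scaling (-0.07) or library totals only (-0.01). SLC7A1 over SLC7A2 per kilobase went from 11.02 ± 0.35 to 17.1 ± 0.11 (SD, n = 3, exact permutation p = 0.1).

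Among the SLC1 carriers the glutamine exchanger fell and a related exchanger rose. SLC1A5 encodes ASCT2, the sodium-dependent exchanger known for glutamine uptake, and had 581, 592 and 549 CPM with vehicle and 431, 439 and 442 CPM with OA. Vehicle values were all higher, and the log2 fold change was -0.39 (SE 0.030, adjusted p = 1.53e-10). SLC1A4 encodes ASCT1, which carries alanine, serine and cysteine, and had 26.0, 25.8 and 25.6 CPM with vehicle and 47.8, 51.3 and 49.9 CPM with OA. SLC1A4 was 1.92-fold higher (log2 0.94, SE 0.042, adjusted p = 2.19e-14), and SLC1A4 over SLC1A5 per kilobase went from 0.0302 ± 0.0011 to 0.0762 ± 0.0021 (SD, n = 3, exact permutation p = 0.1).

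The glutamate carriers of SLC1 differed in the same way. SLC1A1 encodes EAAT3, which carries glutamate, aspartate and cysteine (chromosome 9, 4490427 to 4587469), and had 1.83, 2.12 and 2.14 CPM with vehicle and 16.5, 16.3 and 16.1 CPM with OA. It was 8.07-fold higher, with no overlap (log2 3.01, SE 0.086, adjusted p = 1.87e-17). SLC1A3, the gene of the glial type glutamate carrier EAAT1, had 41.1, 41.4 and 41.1 CPM with vehicle and 32.0, 30.5 and 31.4 CPM with OA. Its log2 fold change of -0.40 (SE 0.040, adjusted p = 1.28e-08) was not called with library totals only (-0.11). SLC1A2, SLC1A6 and SLC1A7 were not analysed here.

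In the SLC38 family, the sodium-coupled neutral amino acid carriers, 3 of 8 genes rose and 4 fell with TMM (median log2 -0.14), whereas 4 rose and 2 fell with upper quartile scaling (0.09) and with library totals only (0.14). SLC38A2, the SNAT2 gene of small neutral amino acid uptake, had 972, 977 and 1010 CPM with vehicle and 716, 686 and 719 CPM with OA. The groups were apart (log2 -0.48, SE 0.028, adjusted p = 1.88e-12). SLC38A1, the SNAT1 gene with a like role, had 739, 763 and 746 CPM with vehicle and 647, 652 and 641 CPM with OA, and its call as lower (log2 -0.21, SE 0.026, adjusted p = 2.06e-07) turned to 0.01 with upper quartile scaling and 0.07 with library totals only, neither of them called.

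SLC38A3 encodes SNAT3, a system N carrier of glutamine and histidine known from liver, kidney and brain. It had 0.130, 0.198 and 0.179 CPM with vehicle (7, 9 and 7 counts) and 3.72, 4.03 and 4.26 CPM with OA (202, 221 and 222 counts). The log2 fold change was 4.57 (SE 0.21, adjusted p = 2.81e-14). In OA replicates 1, 2 and 3 SLC38A3 stood at 3.72, 4.03 and 4.26 CPM, and the hepatocyte markers summed to 13.4, 32.0 and 94.5 CPM. The part of a liver signal in the rise of SLC38A3 was not tested. SLC38A5, another system N gene, had 4, 5 and 3 counts with vehicle and 39, 46 and 30 with OA (log2 3.00, SE 0.37, adjusted p = 2.12e-07). SLC38A3, SLC38A5 and SLC7A10 met the filter on low counts only through OA, so a difference was built into their entry.

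SLC38A6 fell from 14.0, 14.0 and 13.6 CPM in vehicle to 6.96, 6.88 and 6.80 CPM in OA (log2 -1.01, SE 0.067, adjusted p = 1.60e-11). Its log2 change was less than 2-fold with upper quartile scaling (-0.79), library totals only (-0.73) and the filter of at least 1 CPM in 3 libraries (-0.99). The study's gene models place 25.5% of its exon bases in TRMT5 on the opposite strand, and TRMT5 had a log2 fold change of -0.93. SLC38A7, a lysosomal glutamine and asparagine carrier gene, had 37.3 to 40.1 CPM with vehicle and 30.5 to 32.4 CPM with OA (log2 -0.31, adjusted p = 1.41e-06), a call that did not hold with upper quartile scaling (-0.08) or library totals only (-0.03). SLC38A9, whose product senses lysosomal arginine for mTORC1, had 31.2, 30.3 and 34.0 CPM with vehicle and 36.8, 37.1 and 33.3 CPM with OA. These groups overlapped, and the call as higher (log2 0.17, SE 0.051, adjusted p = 0.00460) was lost with DESeq2 (adjusted p = 0.0140) and without vehicle replicate 1 or 2 or OA replicate 1 or 2 (edgeR adjusted p = 0.0204 to 0.0424). SLC38A10 had 76.4 to 81.4 CPM with vehicle and 74.4 to 75.8 CPM with OA and was not called (log2 -0.07, adjusted p = 0.0540), although it was called higher with library totals only (0.21) and upper quartile scaling (0.16).

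The proton-coupled SLC36 family, whose SLC36A1 product moves small amino acids out of the lysosome, had 1 gene on each side. SLC36A1 had 26.1, 24.9 and 26.3 CPM with vehicle and 33.0, 34.9 and 33.3 CPM with OA (log2 0.39, SE 0.044, adjusted p = 8.44e-08). SLC36A4, which encodes a carrier of proline and tryptophan, had 35.8, 35.8 and 36.8 CPM with vehicle and 26.6, 28.4 and 26.9 CPM with OA (log2 -0.40, SE 0.043, adjusted p = 3.23e-08). Neither gene's groups overlapped, and SLC36A4 was not called with library totals only (-0.12).

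The SLC43 family held the largest fall of all 32 genes. SLC43A3 had 210, 211 and 201 CPM with vehicle and 61.1, 63.7 and 67.0 CPM with OA (chromosome 11, 57406954 to 57427580). Every OA library was below every vehicle library (log2 -1.70, SE 0.035, adjusted p = 1.55e-19). Its product is known as a carrier of purine nucleobases and not of amino acids, so the steepest fall belonged to a gene grouped here by family alone. In the GENCODE annotation 45.9% of its exon bases are shared with a second gene on the same strand, which has no symbol there, so its counts are uncertain.

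SLC43A1 and SLC43A2 encode LAT3 and LAT4, which let large neutral amino acids diffuse across the membrane without exchange. SLC43A1 had 13.1, 13.9 and 13.7 CPM with vehicle and 26.5, 26.5 and 26.4 CPM with OA, which placed it just under the 2-fold line (1.95-fold, log2 0.96, SE 0.050, adjusted p = 2.74e-13). SLC43A2 had 0.778, 0.771 and 0.893 CPM with vehicle and 1.81, 1.97 and 1.84 CPM with OA (log2 1.21, SE 0.17, adjusted p = 2.20e-06). SLC43A1 over SLC43A3 per kilobase went from 0.0731 ± 0.0032 to 0.461 ± 0.022 (SD, n = 3, exact permutation p = 0.1).

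All 3 measured genes of the amino acid branch of SLC6 rose. SLC6A17, the gene of a neutral amino acid carrier of neuronal synaptic vesicles (chromosome 1, 110150514 to 110202201), had 0.426, 0.463 and 0.408 CPM with vehicle and 8.99, 10.1 and 9.72 CPM with OA. Counts went from 16 to 23 per library up to 488 to 552, and the log2 fold change was 4.46 (SE 0.13, adjusted p = 3.52e-17). Neuron markers were also higher in OA, as given above, and their part in this rise was not tested.

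SLC6A9 encodes the glycine carrier GlyT1 and had 33.9, 33.4 and 31.9 CPM with vehicle and 57.4, 60.5 and 56.1 CPM with OA (log2 0.81, SE 0.041, adjusted p = 2.43e-13). SLC6A15, which encodes a carrier of branched-chain amino acids and proline, had 127, 128 and 133 CPM with vehicle and 175, 171 and 169 CPM with OA (log2 0.41, SE 0.030, adjusted p = 7.65e-11). The libraries of the groups were apart for both genes.

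In the SLC6 branch for GABA, taurine and creatine 1 of 3 genes was called higher with TMM, and all 3 were with upper quartile scaling and library totals only. SLC6A6, the taurine carrier gene, had 112, 103 and 111 CPM with vehicle and 107, 113 and 107 CPM with OA, and its groups overlapped (log2 0.00, SE 0.035, adjusted p = 0.919). SLC6A6 was called higher with upper quartile scaling (0.23) and library totals only (0.29) and stood at -0.013, not called, with DESeq2-type size factors. SLC6A8, the creatine carrier gene, had 125, 131 and 121 CPM with vehicle and 117, 117 and 120 CPM with OA. It missed the threshold (log2 -0.09, SE 0.032, adjusted p = 0.0121). It was called lower with the edgeR likelihood ratio test (adjusted p = 0.00935), with DESeq2-type size factors (-0.11), with DESeq2 (-0.11) and without vehicle or OA replicate 3. SLC6A8 was called higher with upper quartile scaling (0.14) and library totals only (0.19). Its pseudogene SLC6A10P is 96.4% identical over 2062 bases, so its counts are uncertain. SLC6A11, a GABA carrier gene, had 6.24, 5.49 and 6.10 CPM with vehicle and 8.20, 7.52 and 7.43 CPM with OA (log2 0.38, SE 0.086, adjusted p = 4.14e-04).

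Per kilobase, the transporter transcripts were dominated by a few genes in both groups. The summed level of the 32 genes was 1527 ± 29 RPKM (CPM per kilobase) in vehicle and 1124 ± 16 in OA (SD, n = 3). SLC7A5 alone stood at 563 ± 20 RPKM in vehicle and 343 ± 12 in OA, or 36.9% ± 0.65 and 30.5% ± 0.73 of that sum. SLC3A2 (202 ± 2.4 RPKM) and SLC38A2 (202 ± 4.3) followed in vehicle and did not differ beyond their spread, and SLC1A5 (179 ± 7.1) and SLC38A1 (75.2 ± 1.3) came next. These 5 genes held 80.0% ± 0.23 of the sum in vehicle and 74.0% ± 0.12 in OA, and all 5 were lower in OA with TMM, SLC38A1 not with library totals only or upper quartile scaling.

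In OA the order changed below the leading genes. SLC38A2 (145 ± 3.8 RPKM), SLC3A2 (142 ± 3.6) and SLC1A5 (136 ± 1.6) stood close together, with SLC38A2 and SLC3A2 within their spread. SLC7A1 (65.7 ± 2.0) and SLC38A1 (64.9 ± 0.59) did not differ beyond their spread either. SLC7A11 moved from rank 13 to rank 8 of the 32, SLC43A3 from rank 6 to rank 10 and SLC7A6 from rank 9 to rank 17.

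With TMM, direction went with the level in vehicle, in the transporter genes as in all genes. Of the 8 transporter genes under 5 CPM in vehicle, 3 met the filter only through OA and so had to be higher there. The other 5 were higher too (median log2 2.07), as were 60.6% of the 3352 genes of that range that met the filter in vehicle (0.86). At 5 to 100 CPM 6 of 12 rose and 5 fell (median 0.05). Of all genes in that range 38.9% were called higher and 45.3% lower (median -0.05). At 100 CPM or more 3 of 12 rose and 7 fell (median -0.30), while 79.2% of all genes in that range fell (median -0.56). The 3 that rose at this level were SLC7A1, SLC7A11 and SLC6A15, where 13.4% of all genes were called higher.

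With the level taken from a vehicle library left out of the fold change, Spearman's rho between level and log2 fold change was -0.71, -0.67 and -0.69 over the 29 transporter genes that met the filter in vehicle and -0.50, -0.49 and -0.49 over the 13777 genes that did, for vehicle replicates 1, 2 and 3. Over all 32, with the 3 genes that entered through OA, it was -0.78, -0.75 and -0.76, and over all genes tested -0.59, -0.58 and -0.58. This is a description across genes that share the same libraries, and genes are not independent replicates.

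**Figure D4:**
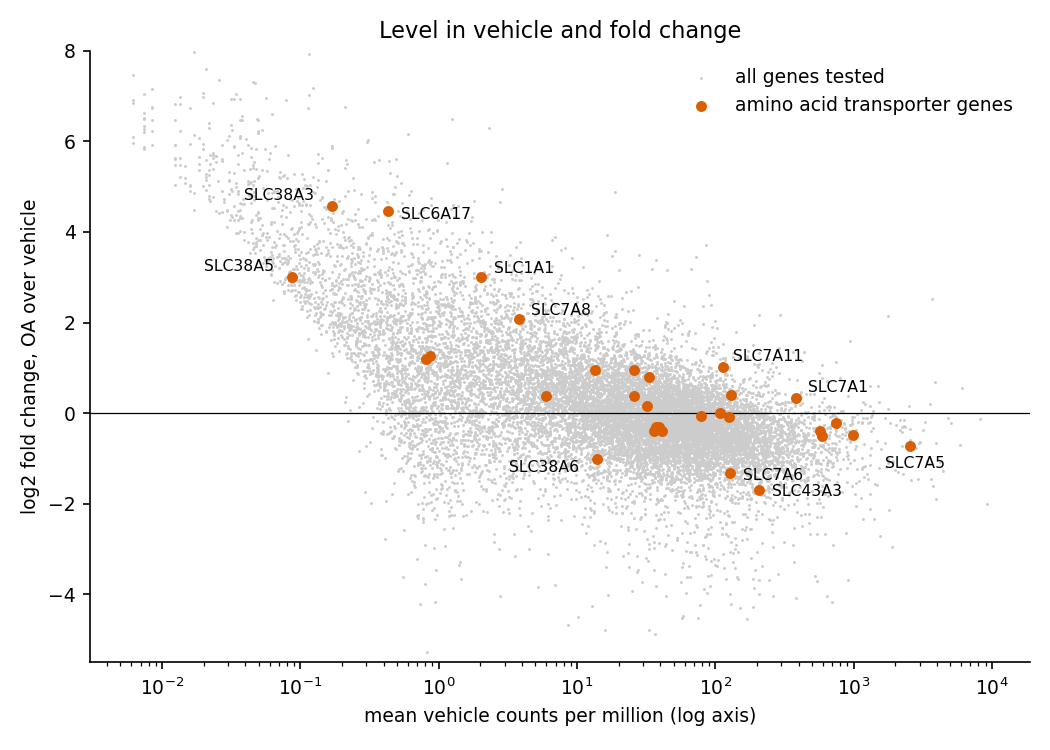
Log2 fold change, OA over vehicle (y axis), against the mean vehicle level in CPM (x axis, log scale) for all genes tested (grey) and the transporter genes (orange), without genes that had no vehicle count, such as SLC7A10. The 12 transporter genes at 100 CPM or more have a median of -0.30 and those under 5 CPM all lie above 0, some of which met the filter only through OA.

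Genes that handle amino acids after entry were counted in 6 lists beside the transporters. With TMM 43.3% of all genes tested were called higher and 41.1% lower. Among 15 other amino acid carriers 6 rose and 8 fell (median log2 -0.22, lowest -1.45, highest 6.36). More than 2-fold changes were called in 3 of them higher and 3 lower. The 3 of smallest p were genes of mitochondrial carriers and all fell, with SLC25A22, which takes up glutamate, at -1.45 (47.9 ± 2.4 to 17.5 ± 0.57 CPM, SD, n = 3), SLC25A13, the aspartate and glutamate exchanger, at -1.07 (124 ± 2.9 to 59.1 ± 2.7) and SLC25A15, the ornithine carrier, at -1.14 (81.9 ± 0.19 to 37.1 ± 1.9). The median of this list was 0.07 with library totals only.

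Of 38 genes by which mTORC1 senses amino acids, 9 rose and 22 fell (median -0.24), against 14 and 11 with library totals only (0.05). RRAGD, a Rag GTPase gene, was 13.7-fold higher (3.87 ± 0.14 to 53.3 ± 1.0 CPM, SD, n = 3). LAMTOR1, the lysosomal anchor of the Rag GTPases, and AKT1S1, an inhibitory subunit of mTORC1, had log2 fold changes of -1.53 and -1.56. In the 19 genes of amino acid synthesis 6 rose and 11 fell (median -0.14), with 7 falls and a median of 0.14 with library totals only. Asparagine synthetase, ASNS, was 4.67-fold higher and CTH, which makes cysteine from cystathionine, 3.93-fold higher, whereas the mitochondrial aspartate aminotransferase gene GOT2 had a log2 fold change of -1.13.

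The 18 genes of the eIF2α kinases and the ATF4 axis, the pathway that responds to amino acid shortage and other stresses, had 12 rises and 3 falls (median 0.78, and 1.06 with library totals only). PPP1R15A, which directs the phosphatase of eIF2α, was 8.88-fold higher (44.4 ± 1.7 to 395 ± 8.8 CPM, SD, n = 3). The stress factor gene ATF3 and the kinase-like gene TRIB3 were 9.35-fold and 3.92-fold higher. Among 20 genes of glutathione synthesis and cystine use 8 rose and 10 fell (median -0.14, and 0.14 with library totals only), with TXN, the gene of thioredoxin, at -1.05, CD44 at -0.55 and the gamma-glutamyl transferase family gene GGT7 at 1.50.

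Branched-chain amino acid breakdown had 5 rises and 12 falls among 20 genes (median -0.33, and -0.05 with library totals only). MCCC2 of leucine breakdown and ECHS1 of valine breakdown had log2 fold changes of -1.17 and -0.95, and HIBADH, also of valine breakdown, of 0.87. These counts describe lists in a table where 84.5% of genes were called, and no list was tested against other genes.

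**Figure D5:**
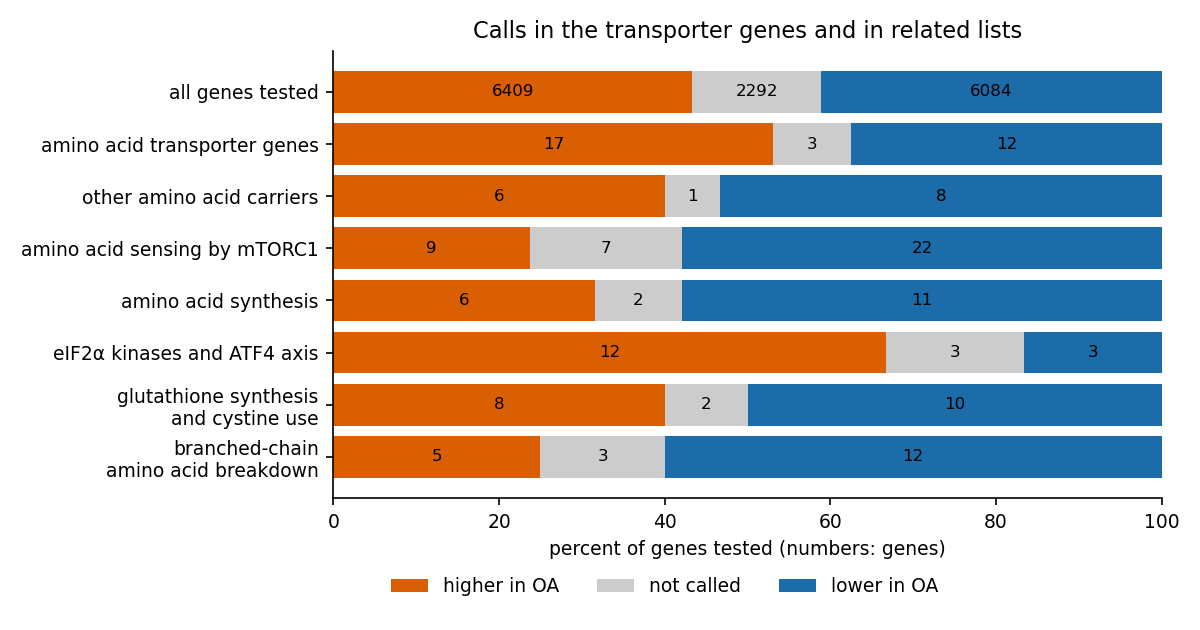
Percent of genes called higher (orange), not called (grey) and called lower (blue) in OA (x axis, with the number of genes in each segment) for all genes tested, the 32 transporter genes and 6 lists of amino acid handling. The transporter genes split into 17 higher and 12 lower, the eIF2α and ATF4 list into 12 and 3, and the mTORC1 list into 9 and 22.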

How the data were processed

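Reads had been mapped by the authors with STAR 2.5 (hg38). Poor and multiply mapped reads were dropped, and featureCounts 1.5.1 assigned the rest to genes. The values deposited are raw, unnormalized counts for each gene, beside a gene length in bases that was used here to give levels per kilobase. The sources differ on read length and layout. Every gene had at least 14 counts over the 6 libraries, so low genes had been removed by a rule not given in the sources used here. Family genes without a row (27 of 59 searched) were not analysed here.

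In edgeR 4.0.16 (R 4.3.3) the counts were scaled by TMM and filtered by filterByExpr, which removed 18 genes and kept all 32 transporter genes. A two-sided quasi-likelihood test of OA over vehicle ran on 14785 genes, with p-values adjusted by Benjamini-Hochberg and a threshold of 0.01 on them. Ratios were compared by exact permutation tests in scipy 1.17.1. The likelihood ratio test of edgeR, named in the study's methods, was an alternative, as were DESeq2 1.42.0, limma-voom 3.58.1, other scalings and filters, a replicate block and omission of each library. Members with at least 1 CPM in the higher group were described by library values, and 3 genes were named per list by smallest p. The transporter genes and lists were chosen with earlier results of these data known. Promoters came from RefSeq (GRCh38.p14). The fit was tested on simulated data. Floors cover counting error only.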

Additional observations from a re-analysis of the deposited data

How the results depend on the processing

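Of the 32 transporter genes, 9 changed their call or sign under at least 1 alternative. The count lower in OA went from 12 to 7 with library totals only. The median log2 fold change of the transporter genes (0.25) was 0.48 with upper quartile scaling and 0.54 with library totals only. It was 0.11 with a filter of at least 1 CPM in 3 libraries, which left 30 of them, without SLC38A5 and SLC7A10. Signs turned for SLC38A1 (0.015 with upper quartile scaling, 0.073 with library totals only), SLC38A10 (0.16 and 0.21) and SLC6A8 (0.14 and 0.19), and for SLC6A6 with DESeq2-type size factors (-0.013), DESeq2 (-0.013) and from -0.031 to 0.026 over the libraries left out, negative without vehicle replicate 2 or OA replicate 2. SLC6A6 was called higher with upper quartile scaling (0.23) and library totals only (0.29). The cause was not tested beyond the shift of all genes under these scalings. Upper quartile and library total scaling each gave 12 genes more than 2-fold higher and 2 lower. Leaving out 1 library gave 16 to 17 genes higher, 12 to 13 lower, 8 to 9 more than 2-fold higher, 3 more than 2-fold lower, medians of 0.23 to 0.27, and ratios of OA to vehicle of 1.09 to 1.12 for SLC3A2 over its light chains and 3.18 to 3.44 for SLC7A11 over SLC7A5. Without length the first ratio was 1.06. Ratios other than these, the shares, the calls by list under alternatives and the trend by level over genes that met the filter in vehicle were added after seeing the data.

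With a replicate block 16 genes were higher and 12 lower, and SLC38A9 lost its call (adjusted p = 0.0112). Same-numbered libraries deviated together with correlations of 0.081, 0.013 and -0.026, and other pairs with -0.10 to 0.096, so no pairing by number was visible. With 3 libraries per group this cannot show whether the samples were paired. SLC7A10 and SLC38A5, with few counts per library, have standard errors of 0.82 and 0.37, and overlapping genes and near-identical copies limit SLC7A6, SLC38A6, SLC43A3, SLC7A5 and SLC6A8.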
